A study of Mus musculus with 2 samples.

Results

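The genes described here are the 52 rows of the gene table whose symbol starts with Cfap, Rsph, Spag or Tekt followed by a digit, with -ps pseudogenes left out, among 50686 genes in all. They comprise 26 Cfap, 8 Rsph, 13 Spag and 5 Tekt genes, and were followed through all 2552 cells of both mice. The cells came from testes of 2 wild-type mice of the strain C57Bl/6J Crl at 8 weeks of age, with no mutant or treated group, and each mouse gave 1 droplet library of polyadenylated RNA. Cells were assigned to mouse 1 or mouse 2 by the number at the end of their barcode.

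Sperm swim by means of a flagellum, whose core, the axoneme, is a ring of doublet microtubules around a central pair. Radial spokes (RSPH proteins) reach from the doublets towards the central apparatus (SPAG6, SPAG16, SPAG17 and several CFAP proteins), and both regulate the dynein arms that drive bending. Tektins and other microtubule inner proteins line the lumen of the doublets and stabilise them. The flagellum begins to grow in round spermatids, and transcription ceases as the spermatid nucleus condenses. Not every gene with these symbols belongs to the axoneme: Spag5 encodes astrin of the mitotic spindle, Spag9 a scaffold protein of JNK signalling, Spag4 a SUN-domain protein of the nuclear envelope, Spag11a and Spag11b defensin-like proteins of the epididymis, and Spag17os an antisense RNA.

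Together these genes received 346230 UMIs in mouse 1 and 375341 UMIs in mouse 2, which was 1.26% and 1.24% of all UMIs (unique molecular identifiers, each counting 1 captured RNA molecule at its 3′ end). Of the 52 genes, 49 had at least 1 UMI and 44 had at least 1000. Rsph1, a protein of the radial spoke head (chr17:31255019-31277383, minus strand, GRCm38), alone held 135650 UMIs, or 18.8% of the total of these genes, and was detected in 98.8% of cells. Not a single UMI came from Spag11a, Spag11b or Spag17os, and a count of 0 allows up to 0.0520 CPM (counts per 1000000 UMIs of a sum) over all cells. Rsph4a, the radial spoke head protein of motile cilia in the airway, had 12 UMIs in all and Cfap73, a protein of the inner dynein arm region, had 39, so that no stage was compared for them. In contrast, Rsph6a, the close relative of Rsph4a known from sperm, had 8174 UMIs and held at least 96.1% of the UMIs of the pair in every cluster of each mouse.

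Cells were grouped into stages by clustering without these genes, and clusters were named from marker genes. Early spermatocyte-like cells numbered 164 and pachytene or later spermatocyte-like cells 527. The first of the round spermatid-like clusters held 688 cells and the second 450. Elongating or condensing spermatid-like cells formed a first cluster of 196 cells and a second, called condensing below, of 509. The name of the first round cluster is the least certain, since 4 of its 13 round spermatid markers, 3 of them Ssxb copies, reached 1.5 times the CPM of all cells. Its score was 0.596 for round spermatids and 0.241 for pachytene or later spermatocytes. The first elongating cluster scored 0.943 for its class and 0.350 for round spermatids. Links between nearest neighbours joined the clusters in the order given here. The other 18 cells were spermatogonium-like, Sertoli-like or Leydig-like.

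Along this order the share of UMIs from these genes was highest in the middle stages. It was 1.03% and 1.14% in early spermatocyte-like cells of mouse 1 and mouse 2, 1.56% and 1.504% in pachytene or later cells, and 1.59% and 1.57% in the first round cluster. The share was 1.26% and 1.28% in the second round cluster, 0.651% and 0.655% in the first elongating cluster and 0.289% and 0.285% in condensing cells. The mice differed by less than the neighbouring clusters at every step except that from pachytene or later cells to the first round cluster. Counted per cell, the order differed: pachytene or later cells had 530 and 512 UMIs of these genes, the first round cluster 302 and 344, and condensing cells 36.4 and 38.9. Depth per cell differed as well, with medians of 20773 UMIs in pachytene or later cells, 18800 in the first round cluster and 11702 in condensing cells. The counts per cell above are means, and mean depth differed more between the first 2 of these clusters than their medians. In mouse 1, 308 pachytene or later cells held 10441807 UMIs and 308 cells of the first round cluster 5859789. In mouse 2, 219 and 380 such cells held 7453866 and 8332164 UMIs. Each level below is therefore given as CPM, and calls of these genes that changed by UMIs per cell are stated.

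**Figure D1:**
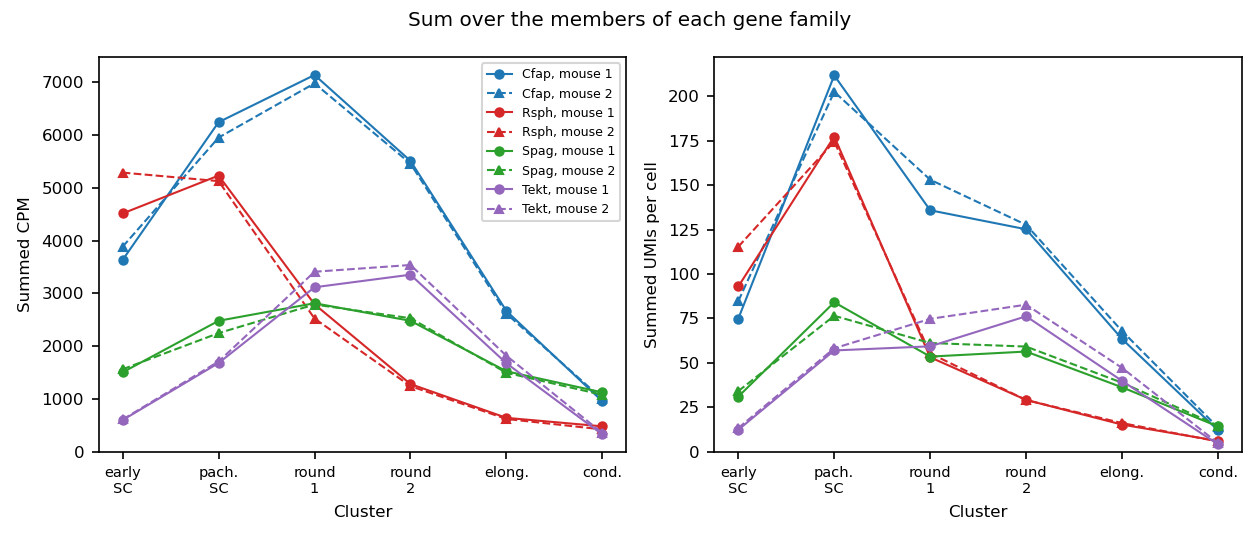
Sum over the genes of each symbol family by cluster, as CPM (left) and as UMIs per cell (right), with circles and solid lines for mouse 1 and triangles and dashed lines for mouse 2 (SC, spermatocyte-like; pach., pachytene or later; elong. and cond., the first elongating and the condensing cluster). Rsph was highest in the spermatocyte-like clusters, Tekt in the round spermatid-like clusters, and all 4 families were low in condensing cells on both scales.

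The 4 families had different courses. The Rsph sum was highest in the spermatocyte-like clusters, at 4516 and 5290 CPM in early cells and 5234 and 5129 CPM in pachytene or later cells. Most of this was Rsph1: without it the other radial spoke genes summed to 348 and 390 CPM in early cells and to 820 and 710 CPM in pachytene or later cells. The Cfap sum was highest in the first round cluster, at 7141 and 6982 CPM. The Tekt sum was highest in the second round cluster, at 3355 and 3539 CPM, up from 599 and 610 CPM in early spermatocyte-like cells. Per cell, the Cfap, Rsph and Spag sums were highest in pachytene or later cells and the Tekt sum in the second round cluster.

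**Figure D2:**
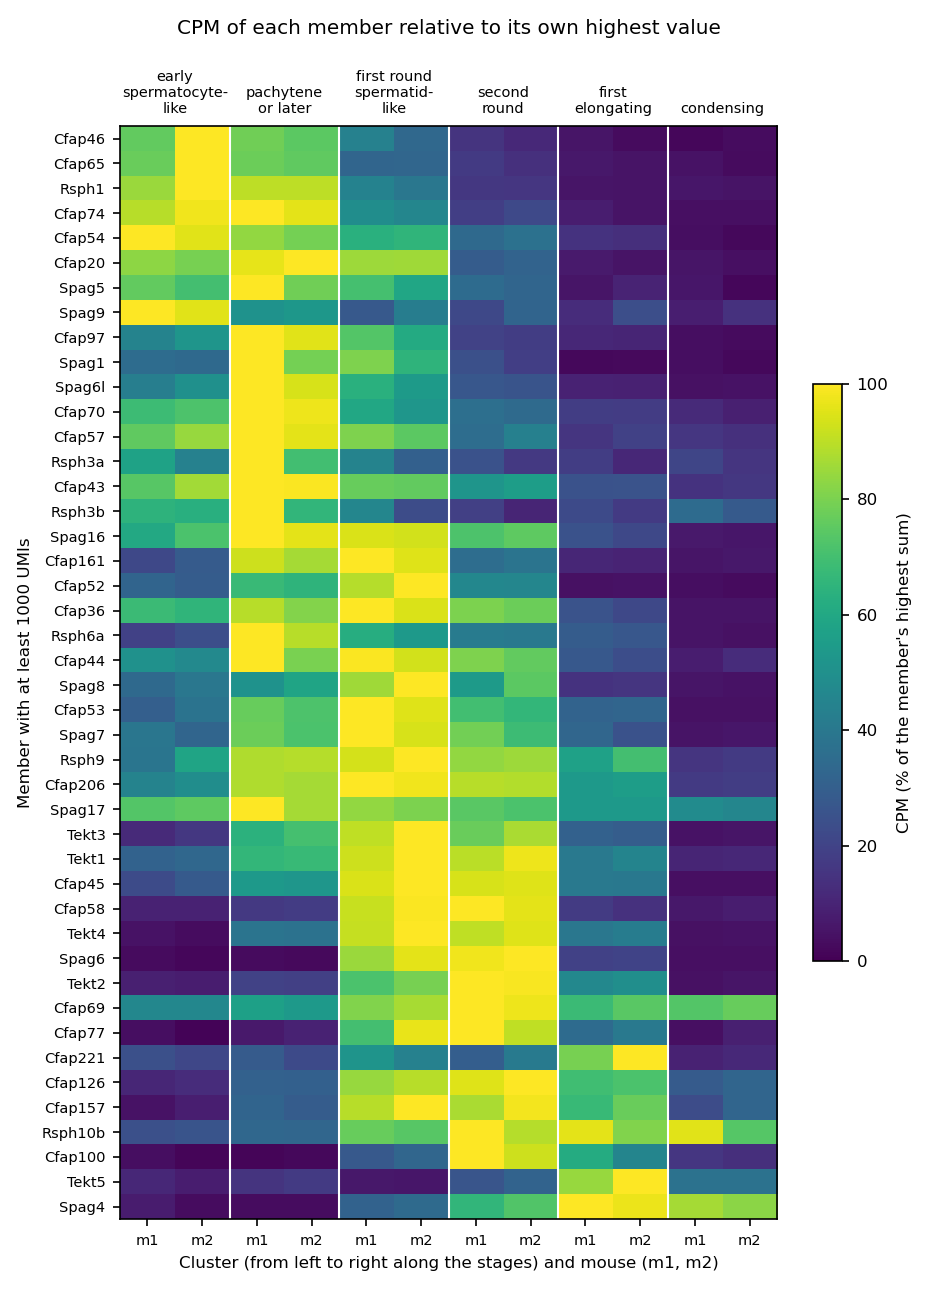
CPM of the 44 genes with at least 1000 UMIs in each of 6 clusters and each mouse (m1, m2), as a percentage of the gene's own highest sum and ordered by the mean position of its counts. Neighbouring columns of the 2 mice are alike, and the highest values run from the spermatocyte-like clusters at the top left to the elongating cluster at the bottom right.

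Of these 44 genes, 37 had their highest CPM in the same cluster in both mice, and the other 7 had it in neighbouring clusters. Cfap54 and Spag9 were highest in early spermatocyte-like cells. There were 13 genes highest in pachytene or later cells, among them Rsph3a, Rsph6a, Spag6l, Spag16 and Spag17, and 13 in the first round cluster, among them Tekt1, Tekt3, Tekt4 and Cfap45. The 6 genes Cfap69, Cfap100, Cfap126, Rsph10b, Spag6 and Tekt2 were highest in the second round cluster. Cfap221, Spag4 and Tekt5 were highest in the first elongating cluster, and no gene was highest in condensing cells in both mice. By UMIs per cell the first round cluster lost its place: 28 genes were then highest in pachytene or later cells, 9 in the second round cluster and none in the first. Along a pseudotime of 10 bins, also made without these genes, the bins of the highest value in both mice lay at most 1 apart for 40 of the 44 genes. That count was 27 with a pseudotime made within each mouse. The last 3 bins mixed both clusters of elongating or condensing cells, so they add no finer order there.

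UMIs were then summed per mouse over 3 classes, namely spermatocyte-like, round spermatid-like and elongating or condensing spermatid-like cells, each of 2 clusters. Classes were compared over the 2 mice with edgeR's quasi-likelihood test. Both comparisons below use the same round spermatid-like sums, and all sums of a mouse come from 1 library, so the p-values measure the spread between 2 libraries. Fold changes are scaled by TMM (trimmed mean of M values), which aims to set the bulk of genes rather than the total equal. They therefore differ from ratios of CPM by 0.23 (round against spermatocyte-like) and 0.79 (elongating or condensing against round) on the log2 scale. After this scaling the median over all rows was still -0.33 for elongating or condensing against round. The other 5 genes had too few counts for the test, and 47 were tested among 15404 rows.

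From spermatocyte-like to round spermatid-like cells, 25 of the 47 genes rose and 17 fell, while 37.8% of all 15404 rows were called higher and 34.9% lower. The median log2 fold change of the 47 genes was 0.35, beside 0.02 over all rows. All 5 tektins rose, as did 13 of 25 Cfap, 3 of 7 Rsph and 4 of 10 Spag genes, with 9 Cfap, 4 Rsph and 4 Spag genes falling. With UMIs per cell in place of TMM, 12 genes rose and 23 fell, beside 27.5% and 53.2% of all rows, and the median of all rows moved from 0.02 to -0.73. The sign of 7 genes turned on that scale, as given for each below, but of these only Cfap36 was called lower. Another 6 genes kept the sign but lost the call, namely Tekt1 at 0.12, Tekt3 at 0.0987, Spag8 at 0.13, Cfap69 at 0.22, Cfap221 at 0.23 and Cfap61 at 0.24. The 5 genes not called after TMM scaling all fell by UMIs per cell. Without the round spermatid-like sum of mouse 2, 23 genes rose and 10 fell. Leaving out the sums of the mice in turn ended the call of 11 genes, namely Cfap20, Cfap36, Cfap43, Cfap54, Cfap57, Rsph6a, Rsph9, Spag1, Spag5, Spag9 and Tekt5, whose changes lay between -0.67 and 0.38 on the log2 scale. With the first round cluster counted as spermatocytes, 17 rose and 18 fell, beside 4807 and 5118 of 13820 rows.

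From round to elongating or condensing spermatid-like cells, 6 genes rose and 33 fell, while 28.3% of all rows were called higher and 37.1% lower. The median log2 fold change was -1.38, beside -0.33 over all rows. Of the Cfap genes 19 fell and 2 rose, of the Rsph genes 3 fell and 2 rose, of the Spag genes 7 fell and 1 rose, and of the tektins 4 fell and 1 rose. The genes that rose were Tekt5, Spag4, Cfap221, Rsph10b, Rsph3b and Cfap69. With UMIs per cell in place of TMM, only Tekt5 and Spag4 rose and 42 genes fell, beside 15.3% and 64.8% of all rows. The 8 genes not called after TMM scaling were all among those 42. Cfap69 illustrates the scale, with 259 and 266 CPM in round and 208 and 220 CPM in elongating or condensing cells but a log2 fold change of 0.49 after TMM scaling. The CPM of Cfap221, Rsph10b and Rsph3b overlapped between these classes, and the calls of Cfap99, Cfap221 and Rsph3b were lost without 1 of the sums. With DESeq2, 8 genes rose and 31 fell, beside 4556 and 3910 of 18876 rows. The median of all rows was -1.49 by UMIs per cell and -0.03 with median-of-ratios (RLE) factors. With the first round cluster left out, the median of the 47 genes was -0.84 with 33 genes falling, beside -0.0255 over all rows with 3804 of 13965 falling.

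**Figure D3:**
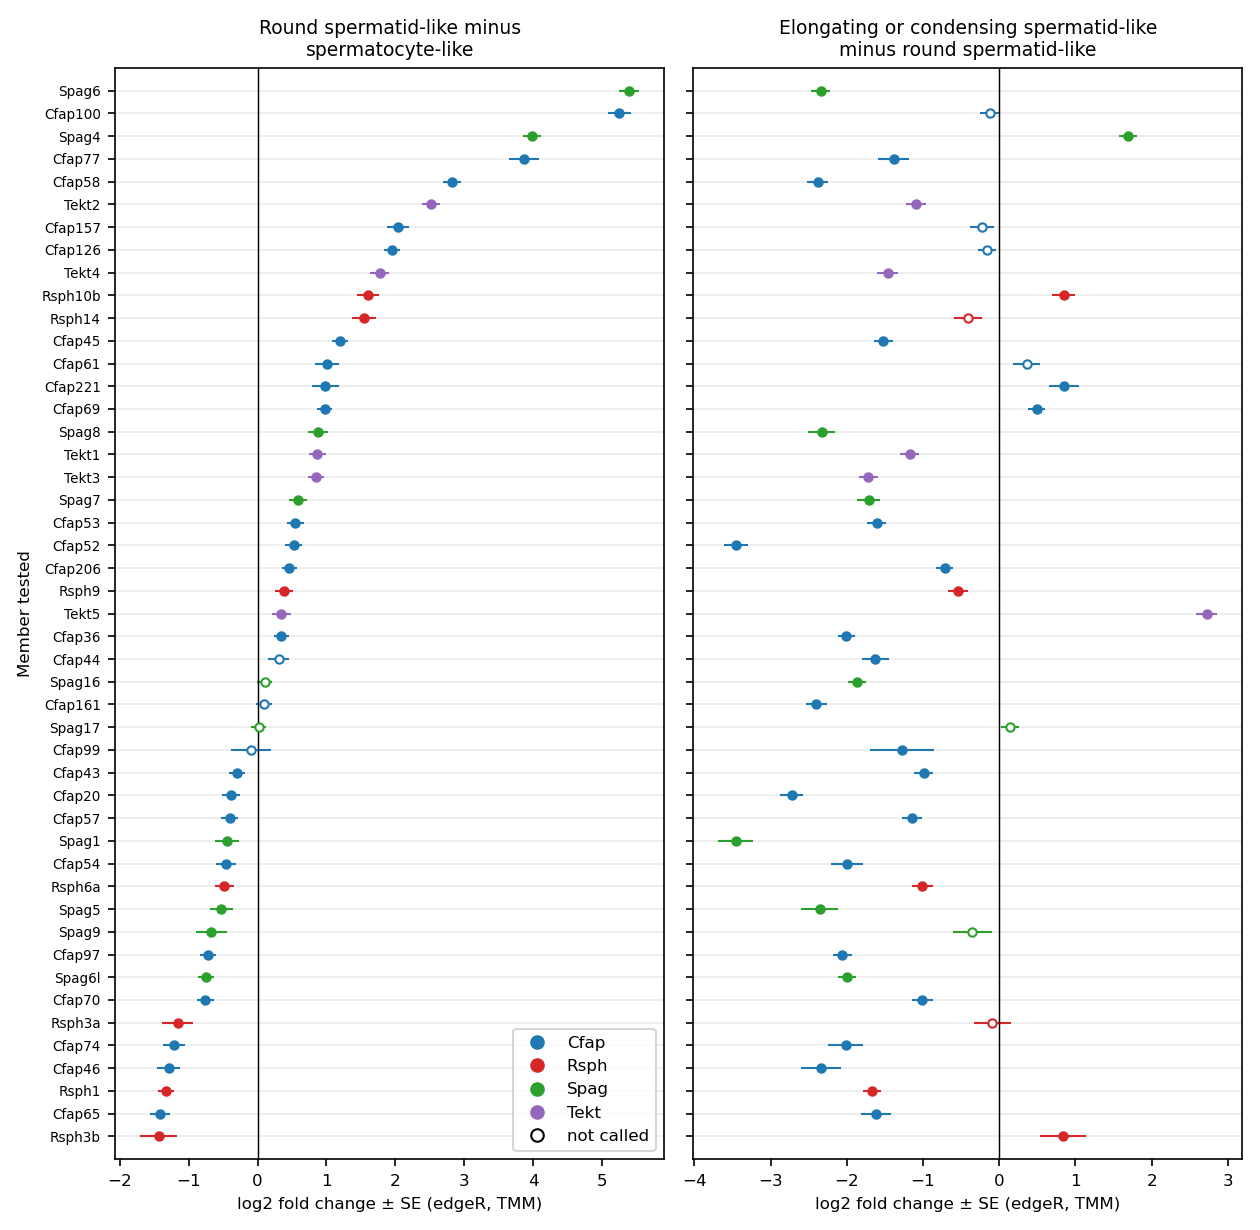
log2 fold change with its standard error from edgeR for the 47 tested genes, round spermatid-like minus spermatocyte-like (left) and elongating or condensing minus round spermatid-like (right), both sorted by the left panel, with open symbols for genes not called. Spag6 and Cfap100 stand highest on the left at 5.39 and 5.25, and Tekt5 and Spag4 stand to the right of zero in the right panel at 2.72 and 1.70.

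Across both steps, after TMM scaling, 15 genes rose and then fell, 14 fell at both and 5 rose at both. Another 5 rose without being called at the second step, 4 fell only at the second step, 2 fell at the first without being called at the second, and Rsph3b fell and then rose. Spag17 was called at neither step. By UMIs per cell only Spag4 rose at both steps, since Cfap69, Cfap221 and Rsph10b turned at the second and Tekt5 at the first. The shares of all rows with each of these courses were not counted, so the numbers are not set apart from those of other genes.

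Of the 7 radial spoke genes tested, 4 fell and 3 rose from spermatocyte-like to round cells, where 34.9% of all rows were called lower and 37.8% higher. Rsph1 stood at 4390 and 4537 CPM in spermatocyte-like cells of mouse 1 and mouse 2, at 1579 and 1450 CPM in round spermatid-like cells and at 292 and 257 CPM in elongating or condensing cells. The classes did not overlap, but the share of all rows without overlap was not counted. Rsph1 fell at both steps, by 1.33 ± 0.12 and 1.67 ± 0.12 on the log2 scale (± SE, edgeR adjusted p = 2.05e-07 and 2.80e-08). Rsph6a fell by 0.48 and 1.01, although with each cluster weighted equally its first change was 0.40. Rsph3a and Rsph3b, a pair of genes for the spoke stalk protein RSPH3, fell by 1.16 and 1.43 at the first step. Rsph9, another head protein, had 249 and 243 CPM in spermatocyte-like cells and 267 and 281 CPM in round cells, rising by a log2 fold change of 0.38 (negative, at -0.37, by UMIs per cell), and fell by 0.54 at the second step. Rsph10b rose by 1.61 from 17.1 and 16.4 CPM to 45.3 and 41.97 CPM, and stood at 50.1 and 40.4 CPM in elongating or condensing cells. Rsph14, with 930 UMIs in all, rose by 1.55. Thus Rsph1, Rsph3a, Rsph3b and Rsph6a fell and Rsph9, Rsph10b and Rsph14 rose at the first step after TMM scaling. The calls of Rsph6a and Rsph9 there were lost without 1 of the sums.

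The central apparatus genes contain the pair Spag6 and Spag6l, which code for closely related proteins from different chromosomes (Spag6 at chr2:18694032-18750413, plus strand; Spag6l at chr16:16753016-16829456, minus strand). Spag6l had 360 and 422 CPM in early spermatocyte-like, 843 and 792 in pachytene or later, 534 and 460 in the first round, 228 and 217 in the second round, 79.3 and 76.7 in the first elongating and 37.5 and 39.8 in condensing cells. Spag6 had 21.1 and 13.6 CPM in early and 20.4 and 19.99 CPM in pachytene or later cells, then 630 and 710 CPM in the first and 724 and 741 CPM in the second round cluster. The level of Spag6 was 143 and 149 CPM in the first elongating and 29.6 and 31.5 CPM in condensing cells. Spag6l was thus highest in pachytene or later cells and Spag6 in round spermatids. The ranges of the mice did not overlap between these stages, but the share of all rows without overlap was not counted.

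Of the UMIs of both, Spag6 held 2.36% and 2.46% in pachytene or later cells, 54.1% and 60.7% in the first and 76.1% and 77.3% in the second round cluster, and 44.1% in condensing cells of either mouse. From spermatocyte-like to round cells Spag6 rose by 5.39 ± 0.15 (edgeR adjusted p = 6.45e-12) and Spag6l fell by 0.75 ± 0.11 (adjusted p = 4.73e-05), both on the log2 scale. From round to elongating or condensing cells both fell, with log2 fold changes of -2.34 and -1.997. The reads of such near copies may be split or dropped in counting, so their ratio carries that uncertainty. Free RNA in droplets can add to such low values. Prm1, a protamine gene of condensing spermatids, stood at 2.34% of its highest cluster in early spermatocyte-like cells and at 1.61% in pachytene or later cells. Spag6 stood at 2.172% and 2.76% of its own highest cluster there, Cfap77 at 1.88% and 8.6% and Cfap100 at 2.33% and 1.78%. In pachytene or later cells Spag6 and Cfap77 thus stood above Prm1, and Cfap100, from 37 UMIs in each mouse, stood near it. In early cells of mouse 1 and mouse 2 Cfap77 had 2 and 1 UMIs, Cfap100 10 and 9 and Spag6 23 and 33. Such counts do not resolve the order of these 3 genes against Prm1 in early cells. The part of free RNA in their spermatocyte values was not tested, and their fold changes at the first step rest on these low values.

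The start regions of this pair and of Tekt4 are shown because the motif GTTGCC (reverse complement GGCAAC), a half-site of the RFX factors that act on cilia genes, occurs in each. The sequences are the 250 bases before and 50 bases after the RefSeq start in GRCm38.p6, written 5′ to 3′ on the strand of the gene, with the motif in capitals. They lie at chr2:18698772-18699071 (plus strand) for Spag6, chr16:16829314-16829613 (minus strand) for Spag6l and chr17:25471340-25471639 (plus strand) for Tekt4. The windows of Spag6 and Tekt4 lie inside the genes as annotated by GENCODE, which begin at 18694032 and 25454615. They are therefore not the regions at those annotated 5′ ends.
Spag6: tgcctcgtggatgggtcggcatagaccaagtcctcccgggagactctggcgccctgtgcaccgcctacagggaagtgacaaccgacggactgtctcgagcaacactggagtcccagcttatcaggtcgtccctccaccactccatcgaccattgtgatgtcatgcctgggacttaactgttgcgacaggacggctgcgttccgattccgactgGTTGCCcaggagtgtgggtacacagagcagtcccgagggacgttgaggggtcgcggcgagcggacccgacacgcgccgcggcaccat
Spag6l: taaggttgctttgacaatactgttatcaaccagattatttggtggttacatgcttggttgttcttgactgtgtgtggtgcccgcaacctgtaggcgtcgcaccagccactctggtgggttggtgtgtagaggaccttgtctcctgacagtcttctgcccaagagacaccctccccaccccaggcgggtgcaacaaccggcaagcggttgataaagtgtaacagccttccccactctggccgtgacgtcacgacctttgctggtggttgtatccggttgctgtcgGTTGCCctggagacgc
Tekt4: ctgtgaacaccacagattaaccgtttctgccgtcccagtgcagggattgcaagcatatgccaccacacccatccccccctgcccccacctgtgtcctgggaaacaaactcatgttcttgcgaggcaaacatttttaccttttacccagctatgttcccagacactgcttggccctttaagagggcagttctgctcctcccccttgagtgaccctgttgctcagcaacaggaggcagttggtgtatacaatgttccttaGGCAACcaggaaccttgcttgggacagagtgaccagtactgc
The first base of the motif lies 37 bases before the start in Spag6 (position -37), and at positions 34 and 8 after it in Spag6l and Tekt4. RefSeq held start regions for 39 of the 52 genes, in 47 rows. GTTGCC on either strand occurred in 36.2% of these rows and in 12.5% of 32851 rows of all genes, and at least 2 copies in 17.02% and 1.02%. CAACNG, the core of MYB sites, occurred in 57.4% and 35.0%, and TGACGT, a half-site of cAMP response elements, in 8.51% and 7.51%. Genes with GTTGCC included both Spag6, which rose to round spermatids, and Spag6l and Cfap46, which fell. These matches describe the letters of these windows and were not tested as binding sites.

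The other central apparatus genes differed from Spag6. Spag17, a large protein of the central pair projection, had 761 and 654 CPM in spermatocyte-like, 622 and 599 CPM in round and 393 and 387 CPM in elongating or condensing cells. By CPM its lowest cluster still held 49.8% of its highest, the largest such share among the genes. Its log2 fold changes of 0.01 ± 0.11 and 0.14 ± 0.11 after TMM scaling were not called (edgeR adjusted p = 0.918 and 0.285). By UMIs per cell Spag17 fell at both steps, from 24.3 and 19.6 to 12.7 and 13.5 and then to 5.997 and 6.82. Spag16, the partner of Spag17 in the same structure, was not called at the first step either, but fell there by UMIs per cell. At the second step Spag16 fell by 1.86, from 250 and 253 CPM to 40.3 and 39.7 CPM. Cfap46, Cfap54, Cfap65 and Cfap74, which occupy the central apparatus, fell at both steps. Cfap65 went from 91.0 and 96.1 CPM to 30.6 and 29.3 and then to 6.59 and 4.71 CPM, and Cfap46 from 47.1 and 48.9 to 19.0 and 14.7 and then to 1.96 and 1.85 CPM. Cfap74 fell by 1.21 and 2.01 on the log2 scale, and Cfap54 had changes of -0.46 and -1.995. Cfap69 moved the other way at the first step, from 162 and 151 CPM to 259 and 266 CPM, a log2 fold change of 0.98 (0.22 and not called by UMIs per cell). Cfap221, at 1105 UMIs in all, was highest in the first elongating cluster, at 41.6 and 52.3 CPM beside 5.08 and 6.11 CPM in condensing cells. Cfap99 had 355 UMIs and after TMM scaling was called only at the second step, where it fell by 1.27. By UMIs per cell Cfap99 fell at the first step too. By CPM the lowest cluster thus held 49.8% of the highest for Spag17 and 47.0% for Cfap69, but from 2.69% to 4.40% for Cfap46, Cfap54, Cfap65 and Cfap74.

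**Figure D4:**
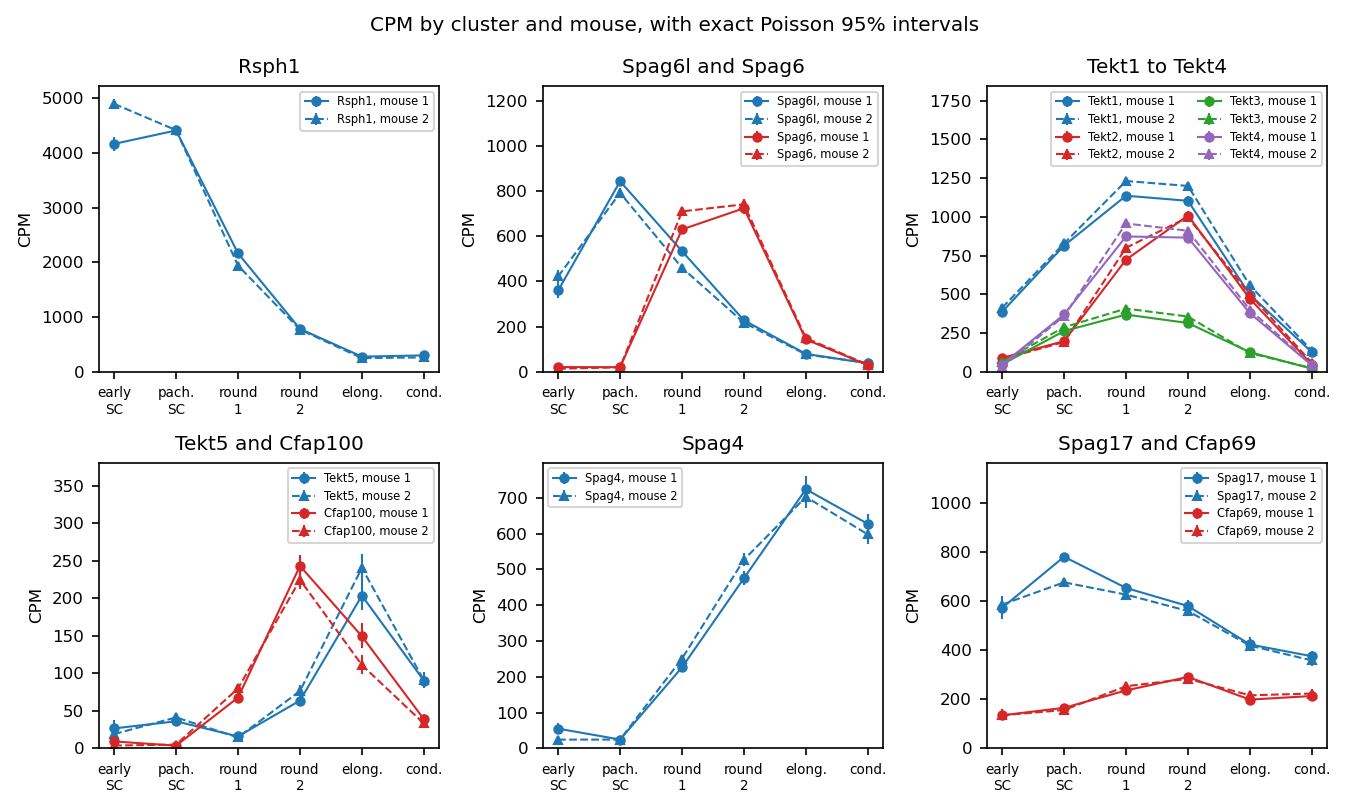
CPM of selected genes in 6 clusters (early SC and pach. SC, spermatocyte-like; round 1 and 2, round spermatid-like; elong. and cond., the first elongating and the condensing cluster), with exact Poisson 95% intervals, circles and solid lines for mouse 1 and triangles and dashed lines for mouse 2. Spag6l and Spag6 cross between pachytene or later and round cells, Tekt1 to Tekt4 peak in the round clusters, and Tekt5 and Spag4 peak in the first elongating cluster.

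Most genes of the doublet lumen rose to round spermatids after TMM scaling, but fewer did so by UMIs per cell. This group, put together from textbook roles after the values were known and not tested as a set, holds the 5 tektins, Cfap20, Cfap45, Cfap52, Cfap53, Cfap77, Cfap126, Cfap161 and Spag8. Of these 13 genes, 11 rose to round spermatids, where 37.8% of all rows were called higher, and 11 fell afterwards, where 37.1% were called lower. By UMIs per cell 5 rose, namely Tekt2, Tekt4, Cfap45, Cfap77 and Cfap126, and 2 fell, beside 27.5% and 53.2% of all rows. Tekt2 (chr4:126322121-126325688, minus strand) had 188 and 165 CPM in spermatocyte-like, 844 and 883 CPM in round and 203 and 268 CPM in elongating or condensing cells, and rose by 2.52 ± 0.14 (edgeR adjusted p = 1.06e-09). Tekt4 rose by 1.77 ± 0.14, from 339 and 280 to 870 and 937 CPM. Tekt1, the most abundant of the tektins by UMIs, rose by 0.87, from 774 and 726 to 1122 and 1218 CPM, and Tekt3 by 0.85, from 243 and 233 to 346 and 386 CPM, but neither was called by UMIs per cell (0.12 and 0.0987). At the second step Tekt1 to Tekt4 fell by 1.18, 1.09, 1.72 and 1.46. None of the ranges of these 4 genes over the 2 mice overlapped between neighbouring classes, but the share of all rows without overlap was not counted.

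Tekt5 (chr16:10357948-10395490, minus strand) had another course. It had 36.0 and 41.2 CPM in pachytene or later cells, 15.9 and 14.5 CPM in the first round cluster and 63.6 and 76.4 CPM in the second. Its highest level was 204 and 241 CPM in the first elongating cluster, with 90.3 and 90.6 CPM in condensing cells. Tekt5 thus had a low point in the first round cluster where Tekt1, Tekt3 and Tekt4 were highest. It rose by 2.72 ± 0.14 from round to elongating or condensing cells (edgeR adjusted p = 9.39e-10), whereas its rise of 0.35 at the first step, from 35.1 and 35.7 to 36.2 and 40.6 CPM, became -0.40 by UMIs per cell and was not called with DESeq2 (adjusted p = 0.161).

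Among the Cfap genes of the lumen, Cfap77 rose by 3.87 from 3.21 and 3.65 CPM to 39.9 and 45.3 CPM. Cfap126, known as Flattop, rose by 1.96 from 155 and 139 to 475 and 499 CPM and was not called at the second step. Cfap45 rose by 1.20 from 372 and 338 to 682 and 710 CPM. Cfap53 rose by 0.55 from 375 and 331 to 452 and 430 CPM and Cfap52 by 0.52 from 187 and 163 to 205 and 224 CPM, but both turned by UMIs per cell, to -0.21 and -0.23. Cfap52 also turned without the first round cluster, at -0.071, and with that cluster counted as spermatocytes, at -0.41. At the second step Cfap52 fell by 3.45 ± 0.15 to 11.6 and 11.1 CPM, Cfap20 by 2.72 from 209 and 215 to 21.4 and 15.8 CPM and Cfap161 by 2.40 from 256 and 251 to 26.9 and 28.8 CPM. Spag8 rose by 0.88 (0.13 and not called by UMIs per cell) and fell by 2.33, with 50.3 and 54.9 CPM, then 73.6 and 91.0 CPM, then 9.09 and 9.93 CPM. Cfap20 was the one gene of this group that fell at the first step, by 0.38, and Cfap161 was not called there.

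Other genes are known or thought to act on the outer surface of the doublets, near the dynein arms. Of 7 tested, 3 rose and 3 fell at the first step, beside 37.8% and 34.9% of all rows. By UMIs per cell 1 rose and 4 fell, beside 27.5% and 53.2%. Cfap100 (chr6:90403479-90428797, minus strand) had 9.16 and 3.72 CPM in early and 3.54 and 4.96 CPM in pachytene or later cells, 67.6 and 79.8 CPM in the first and 243 and 225 CPM in the second round cluster. It stood at 149 and 111 CPM in the first elongating cluster and at 38.9 and 33.1 CPM in condensing cells. From the low spermatocyte values it rose to round cells by 5.25 ± 0.17 (edgeR adjusted p = 8.79e-12). It was not called at the second step (-0.13 ± 0.13, edgeR adjusted p = 0.411). By UMIs per cell Cfap100 fell there, from 2.91 and 3.17 to 1.215 and 1.237. Cfap61, which had 989 UMIs, rose by 1.001 (0.24 and not called by UMIs per cell). Cfap206 rose by 0.46, from 841 and 774 to 956 and 940 CPM (-0.30 by UMIs per cell), and fell by 0.72. Cfap43, Cfap57 and Cfap70 fell at both steps, by 0.30 and 0.99, 0.40 and 1.15, and 0.76 and 1.01. Cfap44, which forms a tether complex with Cfap43, was not called at the first step, at 0.31, and fell by 1.63 at the second.

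The remaining genes have other or less settled roles. Spag4 (chr2:156065175-156070617, plus strand), needed for the coupling of the sperm tail to the nucleus, had 24.5 and 24.4 CPM in pachytene or later, 226 and 251 CPM in the first round, 476 and 527 CPM in the second round, 724 and 703 CPM in the first elongating and 627 and 598 CPM in condensing cells. It rose at both steps, by 3.98 ± 0.13 and 1.70 ± 0.12 on the log2 scale (edgeR adjusted p = 1.19e-11 and 2.01e-08), and kept that direction under every alternative run. Spag1, an assembly factor of dynein arms in the cytoplasm, fell from 246 and 178 CPM to 149 and 119 and then to 8.37 and 5.72 CPM. Its second log2 fold change of -3.46 ± 0.23 was the largest fall among these genes, next to -3.45 for Cfap52. Spag5, of the spindle, fell by 0.53 and 2.36. Spag9 fell by 0.67 at the first step and was not called at the second. Spag7 rose by 0.58 (-0.18 by UMIs per cell) and fell by 1.71.

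Cfap58, known from severe malformation of the sperm flagellum, rose by 2.83 from 27.6 and 27.1 to 163 and 168 CPM and fell by 2.38 to 17.8 and 19.0 CPM. Cfap157, a basal body protein of the growing flagellum, rose by 2.03 from 48.6 and 39.2 to 145 and 162 CPM and was not called at the second step. Cfap36 was the second gene by UMIs, with 62799. It rose by 0.34 at the first step with CPM that overlapped between the classes (1334 and 1184 in spermatocyte-like, 1399 and 1331 in round cells), turned to -0.41 by UMIs per cell, and fell by 2.01 at the second step. Cfap97 fell at both steps, by 0.72 and 2.06, from 1045 and 935 CPM to 556 and 473 and then to 70.7 and 71.9 CPM.

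Between the mice there is 1 library each, so their differences have no test, and the intervals cover counting error only. Over 130 ratios of 46 genes with at least 50 UMIs in a class of both mice, the median difference was 0.13 on the log2 scale and none exceeded 1. The pair Rsph3a (chr17:7945614-7979824, plus strand) and Rsph3b (chr17:6904413-6948682, minus strand) was lower in mouse 2. The ratio of mouse 2 to mouse 1 for Rsph3a was 0.661 (95% interval 0.618 to 0.707) in spermatocyte-like, 0.681 in round and 0.676 in elongating or condensing cells. For Rsph3b it was 0.675, 0.512 and 0.754. Both genes were thus lower in mouse 2 in every class, but the sequences of this pair were not compared. If they are near copies, reads may be split or dropped in counting, and the 2 genes need not be independent observations. For Rsph3a no interval reached 1, and for Rsph3b only that of elongating or condensing cells did. Of 8136 rows compared in the same way, 1.56% had a second-largest ratio at least that of Rsph3a. Spag9 had ratios of 1.14, 1.501 and 1.87, and Spag1 had 0.724, 0.803 and 0.684, the last from 47 and 34 UMIs (interval 0.426 to 1.09). The spermatocyte-like class held 53 early cells of mouse 1 and 111 of mouse 2, so its ratios also carry that difference. In early cells Spag9 had 102.6 and 97.87 CPM, and in pachytene or later cells 52.39 and 54.47 CPM. Spag9 was thus higher in mouse 2 only in the later 2 classes. Spag1 had 92.5 and 90.0 CPM in early and 262 and 207 CPM in pachytene or later cells. Spag5 was lower in mouse 2 with 0.781, 0.865 and 0.945, of which the first interval lay below 1.

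**Figure D5:**
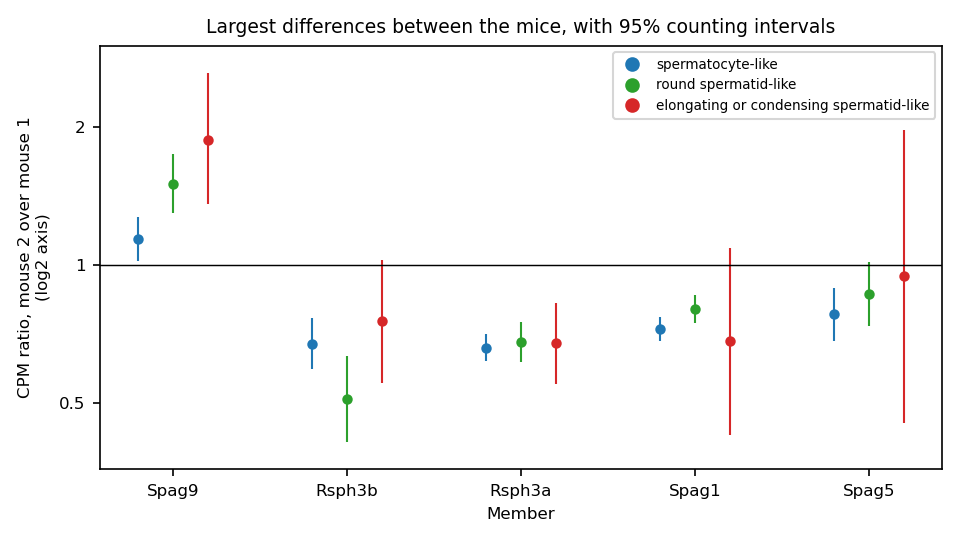
Ratio of CPM of mouse 2 to mouse 1 on a log2 axis for the 5 genes with the largest ratios in the same direction in at least 2 classes, with 95% counting intervals and a colour for each of 3 classes. Rsph3a and Rsph3b lie below 1 in all 3 classes, and Spag9 lies above 1.

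Axonemal genes with other names give the setting for these courses. Their counts stand beside 37.8% of all rows called higher and 34.9% lower at the first step, and 28.3% and 37.1% at the second. By UMIs per cell these shares were 27.5% and 53.2%, then 15.3% and 64.8%. Of 12 further microtubule inner protein genes, 10 rose to round spermatids, none fell, and 7 fell afterwards with 2 rising, whereas by UMIs per cell 6 rose and 2 fell at the first step. Mns1, with the most UMIs of these, was not called at the first step (-0.04) and fell by 1.84. Spaca9 rose at both steps, by 2.60 and 2.82, from 82.4 and 85.1 CPM to 412 and 453 and then to 1694 and 1832 CPM. Of 11 genes of the nexin-dynein regulatory complex, 7 rose and 2 fell at the first step, and 1 rose and 9 fell at the second, while by UMIs per cell 2 rose and 4 fell at the first. The values were 0.73 and -1.74 for Ccdc65, -0.48 and -2.27 for Iqcg and 0.33 and -1.96 for Drc1. Ccdc39 and Ccdc40, which set the repeat length of the axoneme, fell at both steps, by 0.59 and 2.90 and by 1.34 and 1.93.

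Of 8 radial spoke genes with other names, 6 rose and 1 fell at the first step (4 and 2 by UMIs per cell), and 1 rose and 5 fell at the second. Ropn1l, with 169749 UMIs, was called at neither step (0.24 and 0.10), Nme5 rose by 1.40 and fell by 0.65, and Dnajb13 rose by 2.26. Of 7 central apparatus genes with other names, 4 rose and 2 fell at the first step (none and 3 by UMIs per cell) and 5 fell at the second, with Spef2 at 1.01 and -2.44 and Ak7 at 0.39 and -0.80. Of 5 docking genes of outer dynein arms, 3 rose and 2 fell at the first step (2 and 3 by UMIs per cell), and 1 rose and 4 fell at the second, with Ttc25 at 0.32 and -1.24, Armc4 at 2.10 and -1.91 and Ccdc63, a sperm docking protein, at 4.86 and 0.36. Of 13 regulators of ciliary and meiotic transcription, 11 were tested, of which 8 rose and 3 fell at the first step (7 and 3 by UMIs per cell) and 1 rose and 7 fell at the second. Crem, a regulator of spermatid genes, rose by 1.48 and fell by 1.06, Rfx2 fell by 0.58 and 0.68, and Rfx4 rose by 2.03.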

How the data were processed

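Testes of 2 mice were profiled by droplet-based single-cell RNA sequencing, from a library for each animal. Reads were demultiplexed and counted by the authors with cellranger (2.0.0, bcl2fastq 2.17.1.14 per the submitters' processing notes) against repeat-masked GRCm38 with Ensembl annotation and added repeat sequences, pooled both mice with downsampling of reads to equal depth, and deposited whole UMI counts per gene and cell. All 2552 cells and 51868 rows were used. The depth was 27450497 UMIs in mouse 1 and 30302332 UMIs in mouse 2, and 7114 to 154431 UMIs per cell. No barcode was shared between the mice. Doublets called in 25 cells (0.98%) were kept.

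The genes and lists were chosen with earlier results of these data known. Counts were scaled to the median, log2-transformed and standardised over 27741 rows without the genes described, and K-means (K = 9, seed 42) was run on 10 principal components. A cluster took the class with the highest mean marker score where at least 3 markers had 1.5 times the CPM of all cells. Sums per mouse and class were tested with edgeR 4.0.16 (R 4.3.3; TMM, filterByExpr, quasi-likelihood, Benjamini-Hochberg over 15404 rows, threshold 0.05), with all 3 classes sharing 1 estimate of the spread. The standard error is the fold change divided by the root of the F statistic. The procedure was tested on simulated data. CPM carry exact Poisson 95% intervals, and intervals cover counting error only. The limit given for a count of 0 is 3 counts of the total. Genes named are those with at least 1000 UMIs, the 10 largest called changes of each comparison, the 5 largest ratios between mice (at least 50 UMIs, same direction in at least 2 classes), and for other lists the 3 genes with the most UMIs; Cfap61, Cfap73, Cfap99, Rsph4a and Rsph14 were added after their values were seen. Some genes that the rule names are not reported here. The sums of a mouse share that animal, and their deviations from the class means correlated at 0.200, 0.101 and 0.181 across 15404 genes. Alternatives were DESeq2 1.42.0, other scalings, filters, a mouse block, other clusterings, thinning to 5000 UMIs and sums left out. Pseudotime used 30 neighbours. Positions came from GENCODE (GRCm38), start regions from RefSeq (GRCm38.p6).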

Additional observations from a re-analysis of the deposited data

How the results depend on the processing

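With UMIs per cell in place of TMM, 12 genes rose and 23 fell from spermatocyte-like to round cells with a median of -0.40, and 2 rose from round to elongating or condensing cells with a median of -2.55. On that scale the first change turned for Cfap206 (-0.30), Cfap36 (-0.41), Cfap52 (-0.23), Cfap53 (-0.21), Rsph9 (-0.37), Spag7 (-0.18) and Tekt5 (-0.40). The second turned for Cfap221 (-0.31), Cfap69 (-0.68), Rsph10b (-0.34) and Rsph3b (-0.34). Of these, only Cfap36 at the first step and Cfap69 at the second were called in the new direction, and the others lost the call. Cfap52 turned to -0.071 without the largest round cluster and to -0.41 with it among spermatocytes, and Rsph6a to 0.40 with clusters weighted equally. The median of the first step was 0.093 with the largest round cluster among spermatocytes and 0.70 with clusters weighted equally. The median of the second step was -1.17 with DESeq2, -1.08 with RLE factors, -1.55 without a filter, -1.24 with Leiden clusters, -0.84 without the largest round cluster, -0.83 with it among spermatocytes and -1.28 with clusters weighted equally; the cause of these shifts was not tested. Leaving out 1 sum or 1 mouse gave medians from 0.31 to 0.46 and from -1.52 to -1.26, with 22 to 25 genes higher and 10 to 17 lower at the first step (10 without mouse 2 of the round class) and 5 to 6 higher and 33 to 34 lower at the second. Without a whole mouse no test is possible, so that setting gave medians only. With the replicate block for the mouse, 26 genes rose and 17 fell at the first step and 7 rose and 35 fell at the second. No count of calls moved by more than 1.5 times with that block, unlike with UMIs per cell. Counting the largest round cluster elsewhere, leaving out single sums and leaving out protamine genes were chosen after seeing the data; no cluster stayed unnamed, so placing unnamed clusters was not run. Of the results for single genes, 38 of 81 kept direction and call under every alternative with a test and met a further condition. That condition was a shift of at most 1 standard error without a whole mouse. The number that kept direction and call alone was not counted. The number of mice, 2, limits all tests.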

Other observations

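The 18 cells outside the 3 classes also had UMIs of these genes. In the 7 spermatogonium-like cells, 105 of 84949 UMIs (0.124%) came from them, in the 6 Sertoli-like cells 192 of 65201 UMIs (0.294%) and in the 5 Leydig-like cells 35 of 50713 UMIs (0.0690%). The protamine gene Prm1 stood at 1860, 2822 and 2090 CPM in these cells and at 80060 CPM in condensing spermatid-like cells. The source of these Prm1 UMIs was not tested.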
